A study of Mus musculus with 4 samples.

Results

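Immediate early genes are transcribed within minutes of a stimulus, from transcription factors already present in the cell, and 10 genes of their families are described here in area CA1 of the mouse hippocampus, of which Jund is known for steady expression. They are the FOS and JUN genes Fos, Fosb, Jun, Junb and Jund, the zinc finger genes Egr1 and Egr2, the orphan nuclear receptor genes Nr4a1 and Nr4a2, and the phosphatase gene Dusp6. The members were chosen by gene symbol in the array's annotation, which gave 15 probe sets of 12422 that are not manufacturer controls, and 10 of 8251 named genes. A probe set is a group of short oligonucleotides whose readings are combined into 1 signal. Fos, Junb, Egr1, Nr4a2 and Dusp6 had 2 probe sets each, called here the brighter and the dimmer, and the other 5 genes had 1.

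The mice were young C57BL/6J males, an inbred laboratory strain, that an experimenter had handled and that were given no further treatment. RNA was collected at 1, 2, 4 or 6 h, counted from the last shock of other, trained mice, which are not analysed here. Each hour is 1 sample on 1 Affymetrix array, so a difference between hours has no replicate check, and no source used here gives the number of mice behind a sample. Handling is common to all 4 samples, and no sample of mice left unhandled is analysed here.

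The authors' scaled signals had the same trimmed mean on every array, 500.3. The 2 h array stood apart: its ratio of 3' to 5' signal for Gapdh, which reads how complete the labelled RNA was, was 1.08 against 3.62 to 4.10 on the other arrays. For beta-actin the 4 arrays in order of hour gave 2.27, 1.72, 2.59 and 2.93, lowest at 2 h, and for 18S RNA 4.85, 6.41, 3.34 and 6.11, highest at 2 h. CA1 markers had a summed signal over 7 genes of 12592, 11043, 12532 and 13463 at 1, 2, 4 and 6 h. That sum does not show each gene on each array, since Camk2a, among the 7, had at most 41.0 at 1 h and 43.3 at 6 h. As a guide to background, 51 probe sets of genes of testis, ovary, liver, pancreas, mammary gland, skin, muscle, lens and kidney had a median signal of 56.5 and an upper quartile of 171. A signal in that range is therefore no evidence of transcription on its own. The highest of the 51 had a mean signal of 838, so a signal above the quartile is not proof of transcription either. In tissue RNA, fewer cells of a type and less RNA per cell cannot be told apart.

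FOS proteins pair with JUN proteins through leucine zippers to form the AP-1 complex, and JUN proteins can also pair with each other. EGR proteins bind GC-rich sites through zinc fingers, and NR4A proteins are nuclear receptors whose activity depends mainly on how much of them is made rather than on a hormone. Calcium entry and growth factors switch these genes on through the kinase ERK and the factors CREB and SRF. Dusp6 protein removes the activating phosphates from ERK in the cytoplasm, and its gene is itself induced by ERK signalling. In hippocampal neurons the genes are widely used as a record of recent activity.

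CREB binds the cAMP response element, of which TGACG, or CGTCA on the opposite strand, is the core. The 250 bases before each RefSeq transcript start (build GRCm38.p6) were searched on both strands, and the table held such windows for 9 of the 10 members, 13 windows in all because Egr2 had 5. Egr1 had no window and was not searched. The core was found in 8 of the 13 windows, those of Fos, Fosb, Junb, Nr4a1, Nr4a2 and 3 of the 5 of Egr2, whose windows overlap. Of all 32851 windows in the table, 17.8% held it. The full palindrome TGACGTCA, which contains the core, was in 0 of the 13 windows and 1.55% of all. The CArG box, which SRF binds, was in 4 windows of Egr2 and 1.47% of all windows, the AP-1 site TGANTCA in 0 and 6.75%, the EGR site GCGTGGGCG in 0 and 0.536%, and the NR4A site AAAGGTCA in 0 and 1.34%. A match is only a match of letters, and a window without one may have the site further out. The windows below are those of Nr4a2, Fos and Dusp6, 3 genes with a probe set highest at 2 h, and of Nr4a1, the paralogue of Nr4a2 that was not. Capitals mark the core. Nr4a2 lies at chr2:57124004-57124253 on the minus strand, Nr4a1 at chr15:101266596-101266845, Fos at chr12:85473640-85473889 and Dusp6 at chr10:99262981-99263230, all 3 on the plus strand.
Nr4a2: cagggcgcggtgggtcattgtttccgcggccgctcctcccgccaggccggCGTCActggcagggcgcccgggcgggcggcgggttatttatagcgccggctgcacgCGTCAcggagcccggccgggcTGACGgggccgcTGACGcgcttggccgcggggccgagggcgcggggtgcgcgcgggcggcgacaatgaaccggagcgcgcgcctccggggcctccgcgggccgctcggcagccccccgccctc
Nr4a1: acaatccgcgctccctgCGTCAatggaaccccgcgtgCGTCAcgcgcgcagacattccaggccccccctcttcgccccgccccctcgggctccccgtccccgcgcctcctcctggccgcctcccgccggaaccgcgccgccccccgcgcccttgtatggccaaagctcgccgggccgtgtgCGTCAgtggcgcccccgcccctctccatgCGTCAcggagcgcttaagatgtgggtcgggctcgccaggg
Fos: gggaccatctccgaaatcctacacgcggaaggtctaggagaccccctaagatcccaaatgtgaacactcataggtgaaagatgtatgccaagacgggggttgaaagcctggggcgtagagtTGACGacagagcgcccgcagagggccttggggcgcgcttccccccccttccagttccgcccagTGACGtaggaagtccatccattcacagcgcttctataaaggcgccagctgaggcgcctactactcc
Dusp6: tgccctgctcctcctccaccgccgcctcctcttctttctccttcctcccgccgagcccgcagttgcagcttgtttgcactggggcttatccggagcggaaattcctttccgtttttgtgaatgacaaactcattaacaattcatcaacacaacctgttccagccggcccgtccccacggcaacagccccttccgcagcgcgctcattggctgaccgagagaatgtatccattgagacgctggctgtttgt

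The windows of Nr4a2 and Nr4a1 held 4 cores each, that of Fos 2 and that of Dusp6 0. At Egr2 a CArG box and a core lie close together, 76 to 51 bases before a transcript start, at chr10:67537793-67537818 on the plus strand. Capitals mark the CArG box and then the core.
Egr2: cagtCCATATATGGgcagcgaCGTCA

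The NR4A genes differed from each other. Nr4a2, which also marks and maintains dopamine neurons and is induced by activity in CA1, had signals of 426, 1123, 406 and 274 at 1, 2, 4 and 6 h on its brighter probe set. The 2 h sample was 2.64 times the 1 h sample, 2.76 times the 4 h sample and 4.10 times the 6 h sample. The dimmer probe set had 293, 735.5, 473.5 and 232, and its 2 h value was 2.51, 1.55 and 3.16 times those at 1, 4 and 6 h. Both probe sets were thus highest at 2 h and lowest at 6 h. They were designed from the same sequence record, and the name of the dimmer one marks shared or incomplete probes, so they are not independent measurements. Over the 4 samples the brighter had a mean of 557 ± 383 (SD, n = 4) and over the 3 without 2 h 369 ± 82.6 (SD, n = 3). These SDs are over samples of different hours, not over replicates of an hour.

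Nr4a1, induced by the same signals in many cell types, had 604, 793, 676 and 813 on its only probe set. Its highest sample was 1.35 times its lowest, and the 6 h sample was 1.02 times the 2 h sample. The mean was 721 ± 99.1 (SD, n = 4), and 697.5 ± 106 (SD, n = 3) without the 2 h sample. The 2 h sample was 3.10 times the geometric mean of the others for Nr4a2 on its brighter probe set and 1.15 times for Nr4a1.

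**Figure D1:**
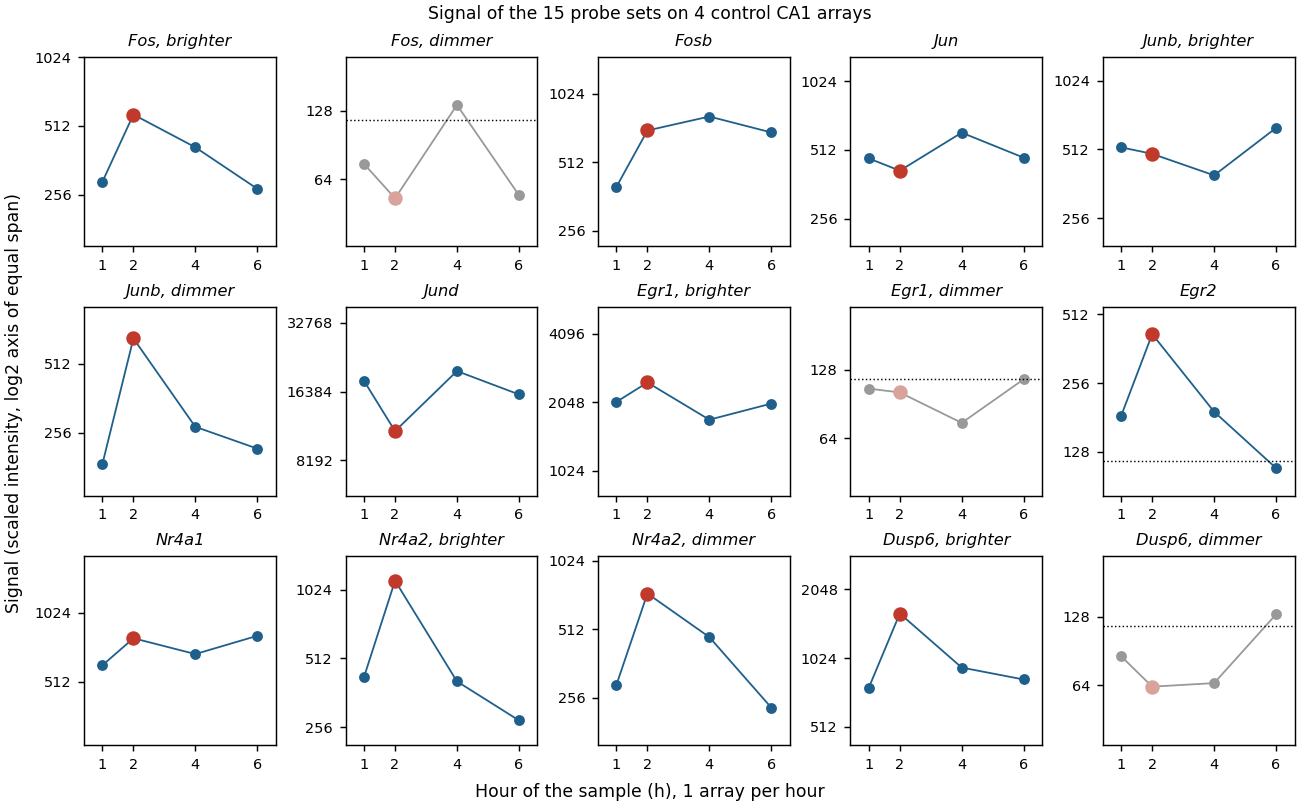
Signal of each of the 15 member probe sets on the 4 arrays, against the hour of the sample, on log2 axes that all span the same fold range; the lines only join the points. The 2 h sample is drawn larger and in red, probe sets under the filter on low values are grey, and the dotted line is the filter signal of 116.4. Both probe sets of Nr4a2 peak at 2 h, whereas the pairs of Fos, Junb and Dusp6 have different shapes.

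The EGR genes also differed. Egr2, a factor known for its part in myelination and induced by strong stimulation in neurons, had 184, 419, 191.5 and 108. Its 2 h sample was 2.28, 2.19 and 3.87 times those at 1, 4 and 6 h, and its 6 h sample was the lowest, under the filter signal of 116.4. The 1 and 4 h samples were close, at 1.04-fold, and the mean without 2 h was 161 ± 46.0 (SD, n = 3). That mean and the 6 h value lie within the range of the background genes, whose upper quartile was 171, so the folds of Egr2 are not firm. Other members are not clear of background either. On their brighter or only probe set, only Egr1, Jund and Dusp6 had a mean over 4 samples above the highest background mean, 838. Without 2 h the mean of Dusp6 was 838, level with that background mean, which includes 2 h. The background probe set in question, of Tnp1, had 590, 1074, 899 and 789, also highest at 2 h. Egr1, a factor required for lasting synaptic potentiation and known for steady expression in CA1 of undisturbed animals, had 2055, 2499.8, 1716 and 2019.5 on its brighter probe set. Its 2 h sample was again the highest, but only 1.22 times the next, and the other 3 had a mean of 1930.3 ± 186 (SD, n = 3). Egr1 had a coefficient of variation of 15.6% over 4 samples and 9.65% over the 3 without 2 h, against 59.5% and 28.5% for Egr2. The dimmer probe set of Egr1, at 106, 102, 74.8 and 116, failed the filter and was highest at 6 h.

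Of the FOS genes, Fos had 291.5, 574, 412.5 and 271 on its brighter probe set. The 2 h sample was 1.97 times the 1 h sample, 2.12 times the 6 h sample and 1.39 times the 4 h sample, while the 6 h sample was 0.931 times the 1 h sample. Without 2 h the mean was 325 ± 76.4 (SD, n = 3). The dimmer probe set of Fos failed the filter and did not repeat this: it had 74.7, 52.8, 135.6 and 54.6, lowest at 2 h and highest at 4 h. Fosb, whose truncated product ΔFosB is stable and builds up with repeated activity, had 399, 705, 812 and 691.5. Here the 1 h sample was the one apart, and the 2, 4 and 6 h samples were 1.77, 2.03 and 1.73 times as high. The mean of Fosb was 652 ± 177 (SD, n = 4).

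The JUN genes gave no common pattern. Junb, a partner of FOS proteins and a weaker activator than Jun, had 187, 662, 271 and 218 on its dimmer probe set, so that the 2 h sample was 3.55, 2.44 and 3.04 times those at 1, 4 and 6 h. Its brighter probe set had 523, 489.9, 394 and 636, with the highest value at 6 h and the 2 h sample between those at 4 and 1 h. Both names mark shared or incomplete probes, and both were designed from the same sequence record. Jun had 469.8, 415, 609.7 and 473.5, lowest at 2 h and highest at 4 h, with a mean of 492 ± 82.8 (SD, n = 4). Jund, the JUN gene that is expressed steadily and responds little to stimulation, had 18228, 10986, 20154 and 15922. Its 2 h sample was the lowest, at 0.603, 0.545 and 0.690 times the values at 1, 4 and 6 h. Without 2 h, the mean of Jund was 18101 ± 2119 (SD, n = 3).

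Dusp6 had 759.9, 1606, 930 and 824.5 on its brighter probe set. The 2 h sample was 2.11, 1.73 and 1.95 times those at 1, 4 and 6 h, and the other 3 samples lay within 1.22-fold, at 838 ± 85.9 (SD, n = 3). The dimmer probe set failed the filter and had 85.7, 63.1, 65.4 and 131, lowest at 2 h and highest at 6 h. Among the 5 genes with a pair of probe sets, 1 gene, Nr4a2, was highest at 2 h on both, and 2 genes, Nr4a2 and Egr1, had differences of the same sign at 2 h. In 3 of the 5, the second probe set was too dim to pass the filter, and in Junb both passed and disagreed.

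The 12 probe sets that passed the filter, covering all 10 genes, and which would pass it without the 2 h array too, were then set side by side, each array against the other 3. The difference used is the log2 signal on 1 array minus the mean log2 signal of the other 3. At 2 h, 7 of the 12 were highest: Fos, the dimmer Junb, Egr1, Egr2, both of Nr4a2 and Dusp6. Over all 7237 tested probe sets 29.1% were highest at 2 h, the array that stood apart. The 1 h array was highest for 0 of the 12 (23.1% of all), the 4 h array for 3 (23.2%), namely Fosb, Jun and Jund, and the 6 h array for 2 (24.5%), namely the brighter Junb and Nr4a1. Lowest at 2 h were 2 of the 12, Jun and Jund, against 32% of all. At least 1.5-fold above each other array at 2 h were 5 of the 12, against 5.72% of all, and at least 2-fold 3 of the 12, against 2.06%. Those 3 were the brighter Nr4a2, Egr2 and the dimmer Junb. On the other arrays 0 of the 12 stood 1.5-fold above, where the background was 0.815%, 1.37% and 1.53% at 1, 4 and 6 h. These counts are over probe sets, and with 1 probe set per gene 3 of 10 genes stood 1.5-fold above at 2 h (4.62% of 5546 genes).

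**Figure D2:**
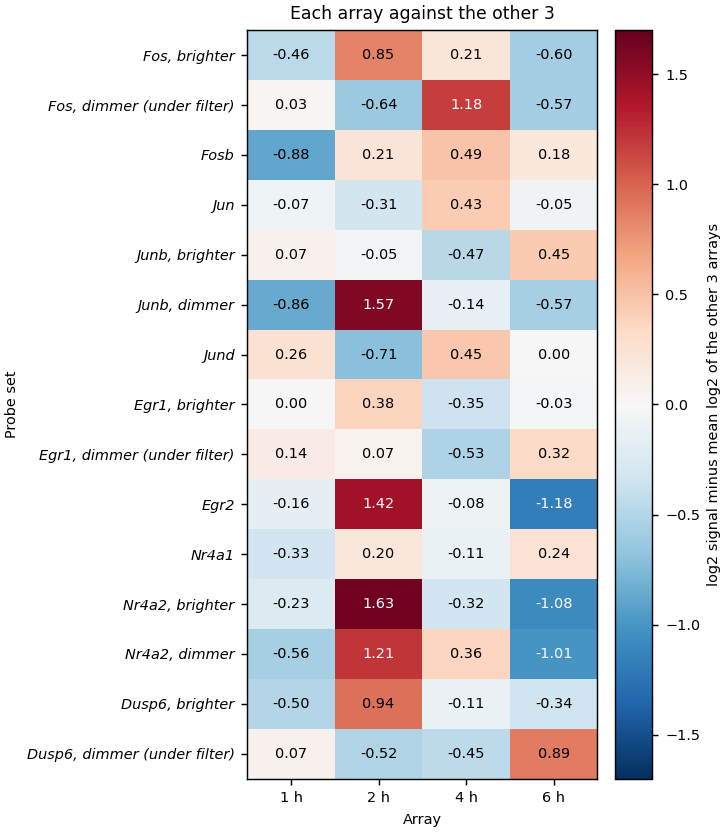
Log2 signal on each array minus the mean log2 signal of the other 3, for the 15 member probe sets (rows) and 4 arrays (columns); red is above and blue below. The 2 h column runs from -0.71 for Jund to 1.63 for the brighter Nr4a2, and the 6 h column is lowest for Egr2, at -1.18.

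The median difference of the 12 probe sets at 2 h was 0.61, against -0.01 over all tested probe sets, and 9 of the 12 were above 0 (48.8% of all). At 1, 4 and 6 h the members' medians were -0.28, -0.10 and -0.20, with 3, 5 and 4 of the 12 above 0 (49.9%, 52.5% and 54.2% of all). The 2 h median depends on which probe sets enter: it was 0.30 over 10 genes through 1 probe set each, 0.21 with the 3 dim probe sets included, and 0.38 both with a filter at the pooled 60th percentile and with only the probe sets whose names mark no shared or incomplete probes. The members spread widely at 2 h. Nr4a2 stood at percentile 98.8 of all tested probe sets on its brighter probe set and 96.9 on its dimmer, the dimmer Junb at 98.6, Egr2 at 98.1, Dusp6 at 94.6 and Fos at 93.3. Egr1, Fosb and Nr4a1 were at 78.6, 68.6 and 67.2, the brighter Junb at 46.2, Jun at 24.2 and Jund at 6.08. These percentiles describe 1 array and are not a test.

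**Figure D3:**
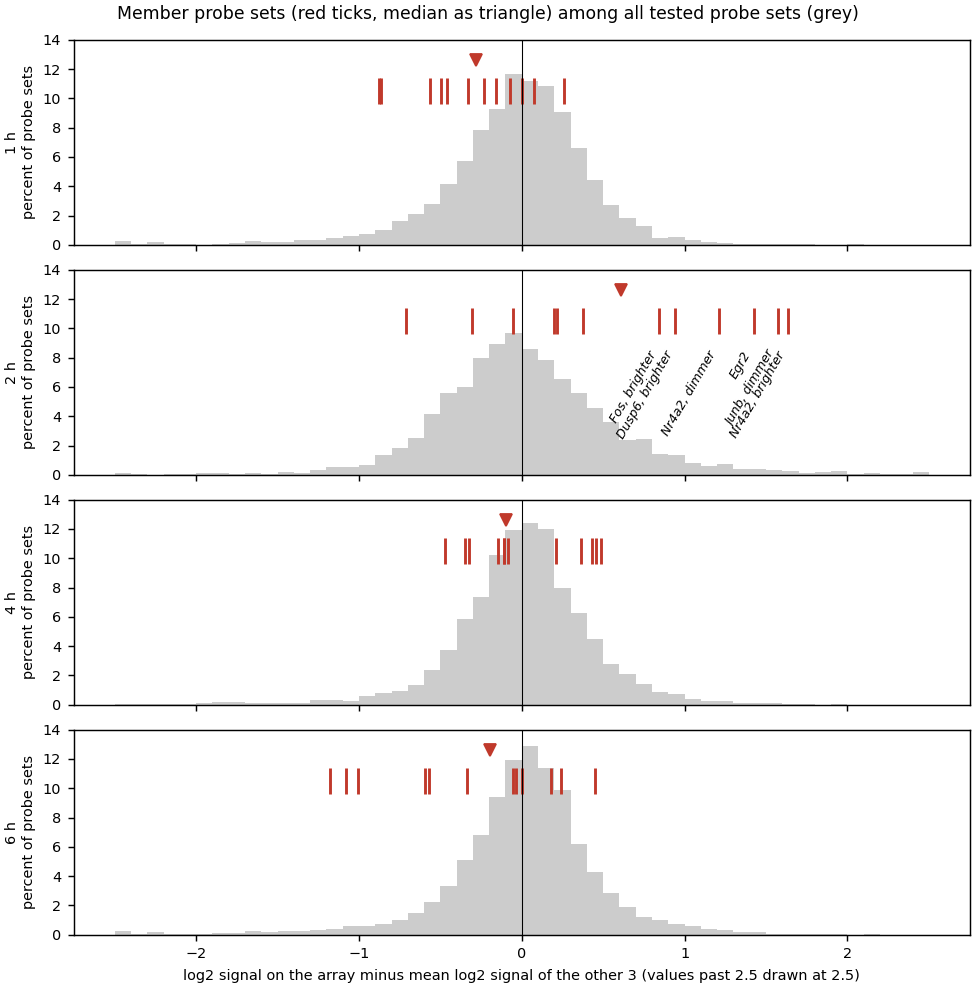
Differences of the 12 tested member probe sets (red ticks; the triangle is their median) over the distribution of all 7237 tested probe sets (grey bars, percent), with a panel for each array. On the 2 h panel the members reach from -0.71 to 1.63 with a median of 0.61, and on the 1, 4 and 6 h panels their medians lie at -0.28, -0.10 and -0.20.

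Fos, Egr2 and both probe sets of Nr4a2 were highest at 2 h and lowest at 6 h, which is 4 of 12 against 9.45% of all tested probe sets. A probe set that is highest at 2 h can be lowest only at 1, 4 or 6 h, so those arrays were also compared alone. There the 6 h array was the lowest for 5 of 12 (31.3% of all), the same 4 and Jund, a share not far from that of all probe sets. The 4 h array was the highest for 8 of 12 (35% of all). At 4 h, 9 of 12 were above 1 h (51.3% of all), from 1.04-fold for Egr2 to 2.03-fold for Fosb. Over these 3 arrays the range was at least 2-fold for 2 of the 12 (12.7% of all), Fosb and the dimmer Nr4a2, whereas over all 4 arrays it was at least 2-fold for 7 (22.6%).

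A straight trend over the hours was tested with limma on all 4 arrays. It called 0 of the 12 member probe sets and 0% of all 7237 after Benjamini-Hochberg adjustment, and the adjusted p was 0.9996 for each member. Without adjustment, 0 members and 2.71% of all probe sets had limma p-values under 0.05. The steepest slopes among the members were those of Nr4a2, -0.24 ± 0.13 log2 per hour on its brighter probe set, and Egr2, -0.24 ± 0.14 (SE, 4 arrays). A linear slope cannot judge a sample that is high at 2 h alone.

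Of a list of 67 other genes of rapid induction, 53 were on the array and 45 passed the filter. Arc, Npas4, Egr3, Egr4 and Nr4a3 were listed but had no probe set named for them alone, so nothing here covers them. The 45 that were tested were not, as a list, high at 2 h. Their median difference at 2 h was -0.03, against -0.02 over all 5546 genes, and 6 of 45 were highest at 2 h, against 5 of the 10 member genes and 28.9% of all genes. None of the 45 was at least 2-fold above each other array at 2 h (1.37% of all genes), and limma's trend test called 0 up and 0 down. Highest in difference were the clock gene Per1, also induced through CREB, with 270, 642, 407.5 and 389, the survival factor Mcl1 with 431, 639, 428 and 313, and the heat shock gene Hspa1a with 425, 854, 554 and 929. Lowest were Zfp36, whose protein destabilises AU-rich mRNAs, with 101, 54.0, 275.5 and 164, and the prohormone convertase gene Pcsk1 with 120.4, 61.2, 267 and 129. Their 2 h signals, 54.0 and 61.2, lie near the median of the background genes, 56.5. Ier2 and Btg2, immediate early genes named after their values were seen, had 203.5, 251, 208 and 340.5, and 582, 658, 823 and 688. Neither was highest at 2 h. Of the 8 genes under the filter, 5 were highest at 2 h: Fosl1, Homer1, Maff, Myc and Ptgs2. With no filter, 25.2% of all probe sets were highest at 2 h, and no share is given for genes under the filter alone. Homer1, whose short form is induced by activity at synapses, had 37.0, 127.8, 53.6 and 28.5 on 1 probe set and 89.8, 183, 88.8 and 58.4 on the other. These signals, picked with their values in view, lie in or near the range of the background genes. The difference between the members and this list has no test, since it rests on 1 array.

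**Figure D4:**
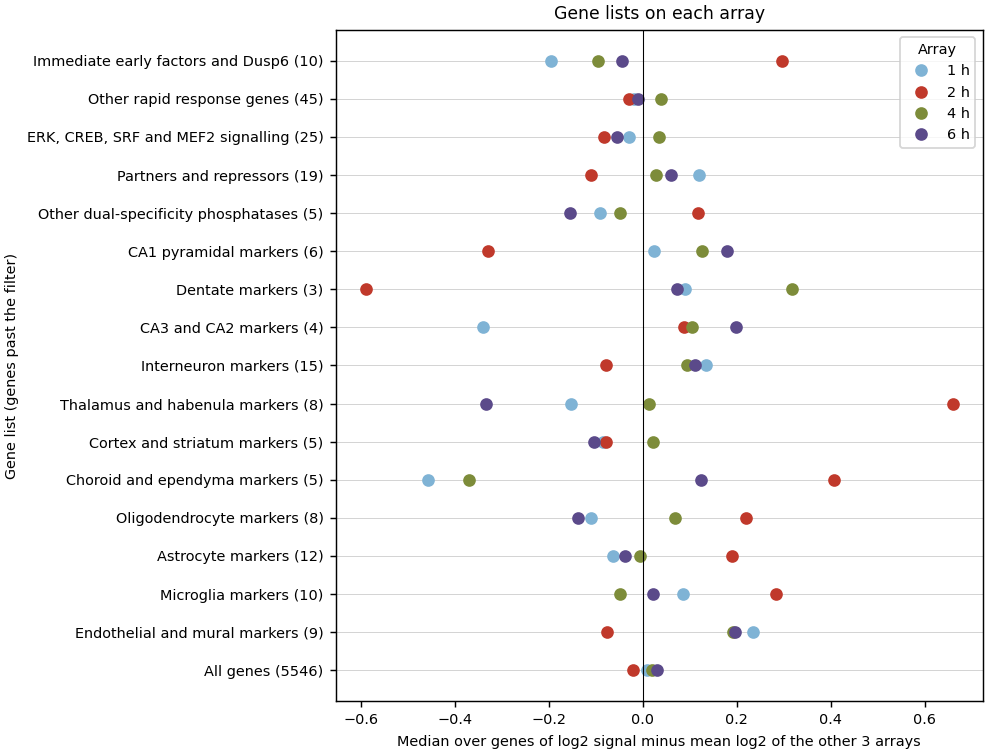
Median over the genes of each list (number past the filter in brackets) of the log2 signal on an array minus the mean log2 signal of the other 3, with a point for each array. At 2 h the 10 member genes lie at 0.30 and the other rapid response genes at -0.03, while thalamus and habenula markers lie at 0.66, choroid and ependyma markers at 0.41 and CA1 pyramidal markers at -0.33.

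The signalling genes upstream were mixed. Of 50 genes of ERK, CREB, SRF and MEF2 signalling, 33 were on the array and 25 were tested. Of the 25, 9 were highest at 2 h (28.9% of all genes), 3 of them at least 2-fold above each other array (1.37% of all genes), and the list's median difference was -0.08. The 3 were Rasgrp1, a Ras activator with 193.5, 636.5, 210 and 177, the kinase gene Mapk9, which encodes JNK2, with 146, 429, 196 and 124, and Mef2c, an activity-regulated transcription factor gene, with 141.5, 351, 169.9 and 111.5. Lowest were Rasgrf1, a calcium-dependent Ras activator with 3495, 1657, 3071 and 3537.5, and Crebbp, a coactivator of CREB, with 1598, 714, 1375 and 1220 on a probe set whose name marks shared or incomplete probes. At 1, 4 and 6 h, Rasgrp1, Mapk9 and Mef2c lay in or near the range of the background genes. The other probe sets of Mef2c failed the filter and did not repeat its 2-fold rise. They had 53.8, 81.9, 83.9 and 51.7, then 179, 185.5, 136 and 24.3, and 109, 135, 76.9 and 119. The trend test called 0 up and 0 down among the 25 tested genes.

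Of 19 tested genes for partners and repressors of the members' proteins and for feedback on ERK, 6 were highest at 2 h (28.9% of all genes), and the median difference was -0.11. Maf, a leucine zipper gene that is 1 of the 6, had 123, 237, 141.5 and 44.9 and passed the filter only through its 2 h value. Atf4, a stress-response leucine zipper gene, had 1774, 3022, 2302 and 1973, and Jmjd6 had 642, 1040 and 758 at 1, 2 and 4 h and 799 at 6 h. The lowest differences belonged to the zinc finger repressor gene Zbtb16, with 2420.5, 1284, 2366 and 2097, and to Spry4, with 487.5, 289.8, 368 and 426. Spry4 encodes an ERK-induced inhibitor of the same pathway as Dusp6. The name of that Zbtb16 probe set marks shared or incomplete probes. The other tested probe set of Zbtb16 did not repeat the low value: it had 64.6, 211, 448.5 and 300, lowest at 1 h. The 5 other dual-specificity phosphatase genes that passed the filter had a median difference of 0.12, and 1 of 5, Dusp19, was highest at 2 h with 316, 515, 371.5 and 399. Dusp2, a nuclear phosphatase of ERK, had 321, 637.5, 783 and 187, Dusp1 had 809, 797, 709 and 692, Dusp8 had 1356, 1398, 1515 and 1425, and Dusp12 had 379, 303, 279 and 209. Limma's trend test called 0 up and 0 down in either list.

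The members' mean profile, centred on its mean over arrays, was -0.23, 0.46, 0.02 and -0.25 log2 at 1, 2, 4 and 6 h. By Euclidean distance over the 4 arrays the closest genes outside the members were Ddr1, a collagen receptor kinase, with 374.5, 587, 448 and 367, and Gsn, which severs actin, with 671, 1069, 823 and 668. Next came C1qtnf12, Hap1, which binds huntingtin, and Bag6. A profile over 4 arrays is easily matched: 278 of 5536 genes were closer to the mean profile than the closest member, Dusp6, and 2946 were closer than the median member.

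Markers of some neighbouring tissues were also high at 2 h, and those of others were not. Of 13 thalamus and habenula markers, 9 were on the array and none lay under the floor of 36.8 on all arrays; their summed signal was 3177, 7020, 3668 and 3065, of which the complexin gene Cplx1, also a gene of other neurons, gave 1139, 4088, 1278.5 and 1259. The 8 that passed the filter had a median difference of 0.66 at 2 h, with 4 highest there (28.9% of all genes). The lists overlap: Prkcd is also a listed CA3 and CA2 marker, and Calb2 a listed interneuron marker. Tac1 is also listed for interneurons and for cortex and striatum. Choroid plexus and ependyma markers, 11 of 15 on the array, summed to 2709, 3963, 2522 and 3060, with Ttr at 222, 892, 107.5 and 356 and Cldn2 under the floor on every array. Of the 5 tested, 3 were highest at 2 h, but Kl had 309, 177.5, 183 and 270.5 and Igf2, on its tested probe set, had 1310, 1356, 1243 and 1418, which did not follow Ttr. CA1 pyramidal markers had a median difference of -0.33 over 6 genes at 2 h, with 0 highest there. Of the 7 CA1 markers on the array the other, Camk2a, failed the filter. Both its probe sets were highest at 2 h, with 41.0, 351, 195 and 43.3, and 18.5, 114, 24.4 and 7.5. Microglial markers had a median difference of 0.28 over 10 genes, with 6 highest at 2 h. Dentate markers had a median difference of -0.59 at 2 h over 3 genes, and cortex and striatum markers -0.08 over 5. In both lists 0 were highest at 2 h. CA3 and CA2 markers had 0.09 over 4 genes, with 2 highest. Oligodendrocyte markers had a median difference of 0.22 with 5 of 8 highest at 2 h, and astrocyte markers 0.19 with 5 of 12. The part of these tissues and cells, and of the low Gapdh ratio at 2 h (1.08), in the members' values was not tested.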

How the data were processed

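Total RNA of 4 handled control samples was measured on 1 array each. The deposited intensity values, 1 per probe set on a linear scale, appear to have been scaled by the authors to 1 mean, since means trimmed by 2% at each end differed by 0.00616% at most; no source used here names the software, and no detection calls were used. Values were used as deposited. Signals under the pooled 20th percentile (36.8) were set to it before log2, and probe sets whose mean log2 reached the pooled 40th percentile (116.4) were tested: 7237 of 12488, the 66 controls left out. Symbols came from the platform's annotation and were updated through gene identifiers for 10817 of 10833 probe sets with 1 symbol; 396 had several and 1193 none, and these are unnamed. A gene entered a list through its tested probe set of highest mean.

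The slope per hour was fitted with limma 3.58.1 (R 4.3.3) over all tested probe sets with a prior that depends on the mean and 2 residual degrees of freedom. The p-values were two-sided and adjusted by Benjamini-Hochberg, with 0.05 as the threshold. The fit was tried on simulated data with slopes steeper than any member's and less spread than these data, so that trial says nothing of power here. All other comparisons are counts and differences with no test. Promoter windows came from RefSeq (GRCm38.p6). Named genes outside the members were, in each list, the 3 highest and 2 lowest differences at 2 h, and the 5 genes nearest the members' mean profile; Ier2, Btg2, genes under the filter and single markers were picked with their values in view. The members and lists were chosen with earlier results of these data known. Alternatives covered normalization, floor, filter, probe sets, time scale, variance prior and leaving out each array. Precision is limited by the number of arrays. Python 3.11.15, pandas 2.3.3 and matplotlib 3.10.9 were used.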

Additional observations from a re-analysis of the deposited data

How the results depend on the processing

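With 1 sample per hour, leaving out the 2 h array left no value for the 2 h results. The count of member probe sets highest at 2 h, 7 of 12 (29.1% of all), was between 5 and 8 under the 11 alternatives that gave one. Those counts have unlike totals and shares over all probe sets. It was 5 of 9 (30.2% of all) without names of shared or incomplete probes and 5 of 10 (28.9%) with 1 probe set per gene. With no filter it was 7 of 15 (25.2%). Without the 4 h or the 6 h array it was 8 of 12 (35.5% and 36.1%). The count 1.5-fold above each other array at 2 h was 5 of 12 (5.72% of all). It was 3 of 9 (5.78%) with only probe sets whose names mark no shared or incomplete probes. With 1 probe set per gene it was 3 of 10 (4.62%). Leaving out the 1, 4 or 6 h array gave 5, 6 and 5 of 12 (7.24%, 7.99% and 8.12% of all). The members' median difference at 2 h, 0.61, was 0.21 with no filter on low values, which adds the 3 dim probe sets, 0.30 with 1 probe set per gene, and 0.38 with a filter at the pooled 60th percentile or without probe sets of shared or incomplete probes; leaving out an array gave 0.57 to 0.72. The trend test called 0 of all probe sets, and 0 to 32 when each array was left out in turn. The 32 calls came without the 2 h array, from 1 residual degree of freedom, and 0 of them were members. Of the single probe sets, the signs at 2 h of Fosb, the brighter Junb and the dimmer Egr1, all small, changed under at least 1 alternative (-0.09 to 0.42, -0.24 to 0.11 and -0.12 to 0.19), and the signs of the other 12 did not. The count of members lowest at 6 h, 4 of 12 (20.9% of all), was 5 without the 2 h array (31.3% of all), a comparison added after the data were seen. No paired analysis was possible because each hour has 1 sample. No value here can separate the hour of a sample from the array or the mice it came from.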
